A study of Mus musculus with 18 samples.

Results

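The insulin-like growth factor 2 mRNA-binding proteins (*Igf2bp1*, *Igf2bp2*, *Igf2bp3*), the high mobility group AT-hook proteins (*Hmga1*, *Hmga2*) and the DNA-binding protein *Arid3a* were followed in fetal and adult mouse thymocyte progenitors. All probe sets of the array annotated to 1 of these 6 genes alone were taken. They were 10 of 22626 probe sets and belonged to 4 genes: 2 to *Igf2bp1*, 4 to *Igf2bp3*, 3 to *Hmga2* and 1 to *Arid3a*. *Igf2bp2* and *Hmga1* had 0 probe sets under this rule and were not analysed here.

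Gene expression was measured on Affymetrix Mouse 430A 2.0 arrays in 6 sorted populations of C57BL/6 mice with 3 arrays each. These were fetal and adult early thymic progenitors (ETP, lineage negative CD44+CD25-c-kit+), DN2 cells (CD44+CD25+) and DN3 cells (CD44-CD25+), which follow each other in this order during T cell development. Fetal thymi are labelled E14.5 with no sex given, whereas the study's methods place them a day later. Adult donors were females aged 4 to 6 weeks, no group carried a transgene or a treatment, and RNA came from 80000 cells per population. RNA of 2 fetal or 4 adult sorts was pooled for each array. The labels name the arrays of a group biological replicates, while the methods call them technical, so that the p-values measure the spread between arrays.

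The Igf2bp proteins bind the coding and untranslated parts of messenger RNAs and affect their stability, location and translation. *Hmga2* encodes a small protein that binds AT-rich DNA and bends chromatin. Both families are known for high levels in the embryo and low levels in most adult tissues. In fetal blood stem cells *Lin28b* blocks the maturation of let-7 microRNAs, which otherwise repress messengers such as *Hmga2*, *Igf2bp1* and *Igf2bp3*, and *Arid3a* has been placed in the same programme in B cell progenitors.

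Mature let-7 sequences are shown because a shared seed defines the microRNA family to which these genes answer; the arrays did not measure microRNAs. In RefSeq annotation of mouse (GRCm38.p6), 13 of 1738 mature entries under 11 names carried the seed GAGGUAG at bases 2 to 8, given here in capitals. Among the 4 such microRNAs printed 5′ to 3′, the bases after the seed differ while the seed is the same.
mmu-let-7a-5p: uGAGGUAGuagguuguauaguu
mmu-let-7b-5p: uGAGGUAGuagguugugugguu
mmu-let-7g-5p: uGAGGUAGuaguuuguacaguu
mmu-miR-98-5p: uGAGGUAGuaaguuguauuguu

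All values are log2 intensities centred on the median of each probe set over the 18 arrays. A value of 0 is therefore the middle of the 18 arrays and says nothing about the level. Differences between arrays of 1 probe set can be read, but levels of different probe sets cannot be compared, and whether a low value lies at the limit of detection is not known. A change of at least 1.8-fold was called where limma gave an adjusted p under 0.05 (Benjamini-Hochberg adjustment across the 22626 probe sets). Bulk values cannot tell fewer cells with a transcript from less transcript per cell.

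Some arrays stood apart from their groups. The embryonic globin gene *Hbb-y* (1436717_x_at) stood at 9.93 to 11.08 in fetal replicates 2 and 3 of all 3 stages. It was at 5.47, 0.05 and -0.14 in the ETP, DN2 and DN3 arrays of fetal replicate 1, against -0.21 to 0.00 on the 9 adult arrays. Summed over the 9 measured of 11 erythroid markers, centred values were 0.39 to 9.56 for fetal ETP, 1.70 to 9.27 for fetal DN2 and 5.39 to 15.6 for fetal DN3, against -1.06 to -0.24 in adult cells. 2 of the 9 markers, *Hba-x* and *Hba-a1*, varied by under 0.3. In fetal cells 1 of the 9 was called higher by limma at ETP, 1 at DN2 and 1 at DN3. Of all probe sets 5.04%, 1.87% and 1.6% were called higher at these stages. Of 8 measured thymic epithelial markers, the keratin gene *Krt18* was called higher in fetal cells at ETP (2.38 ± 0.41 log2), DN2 (1.87 ± 0.41) and DN3 (1.93 ± 0.41) and the adhesion gene *Epcam* at ETP (2.01 ± 0.60), while 4, among them *Foxn1* and *Krt8*, varied by under 0.3. Their summed values were -2.77 to 0.32, 0.99 to 2.27 and 3.93 to 7.20 in fetal ETP, DN2 and DN3, against -6.21 to -5.46, -0.81 to -0.14 and 0.08 to 4.01 in adult ETP, DN2 and DN3, and their part in the age differences was not tested. *Xist*, the RNA that silences an X chromosome in females, had values of 1.59, -11.28 and -11.34 on the adult DN3 arrays although all adult donors are labelled female. *Cd34*, a progenitor surface protein lost by DN3, stood at -7.19, -7.58 and -0.90 in adult DN3, so that replicate 3 was near the adult DN2 values of -1.06, -0.05 and 0.05. Stage markers otherwise followed the labels: summed values of 7 early progenitor markers were 19.1 to 22.2, -4.13 to -1.27 and -28.8 to -24.9 in fetal ETP, DN2 and DN3, against 28.3 to 31.8, -2.18 to 3.06 and -29.3 to -3.21 in adult ETP, DN2 and DN3.

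Fetal cells had more of 3 of the 4 measured genes than adult cells. At ETP 8 of the 10 probe sets were called higher, against 5.04% of all probe sets. At DN2 the count was 8 (1.87% of all) and at DN3 it was 6 (1.6% of all). None of the 10 was called lower by limma at these stages, where 3.45%, 1.57% and 1.16% of all probe sets were. The median difference of the 10 probe sets was 2.40, 3.14 and 2.46 log2 at ETP, DN2 and DN3, against 0.07, 0.03 and 0.02 log2 over all probe sets. 6 of the 10 (*Igf2bp1* both, *Igf2bp3* 2 and *Hmga2* 2) were called at all 3 stages, whereas 0.455% of all probe sets were. With fetal replicate 1 alone against all adult arrays, an alternative chosen after seeing the data, 4 were called at each stage.

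**Figure D1:**
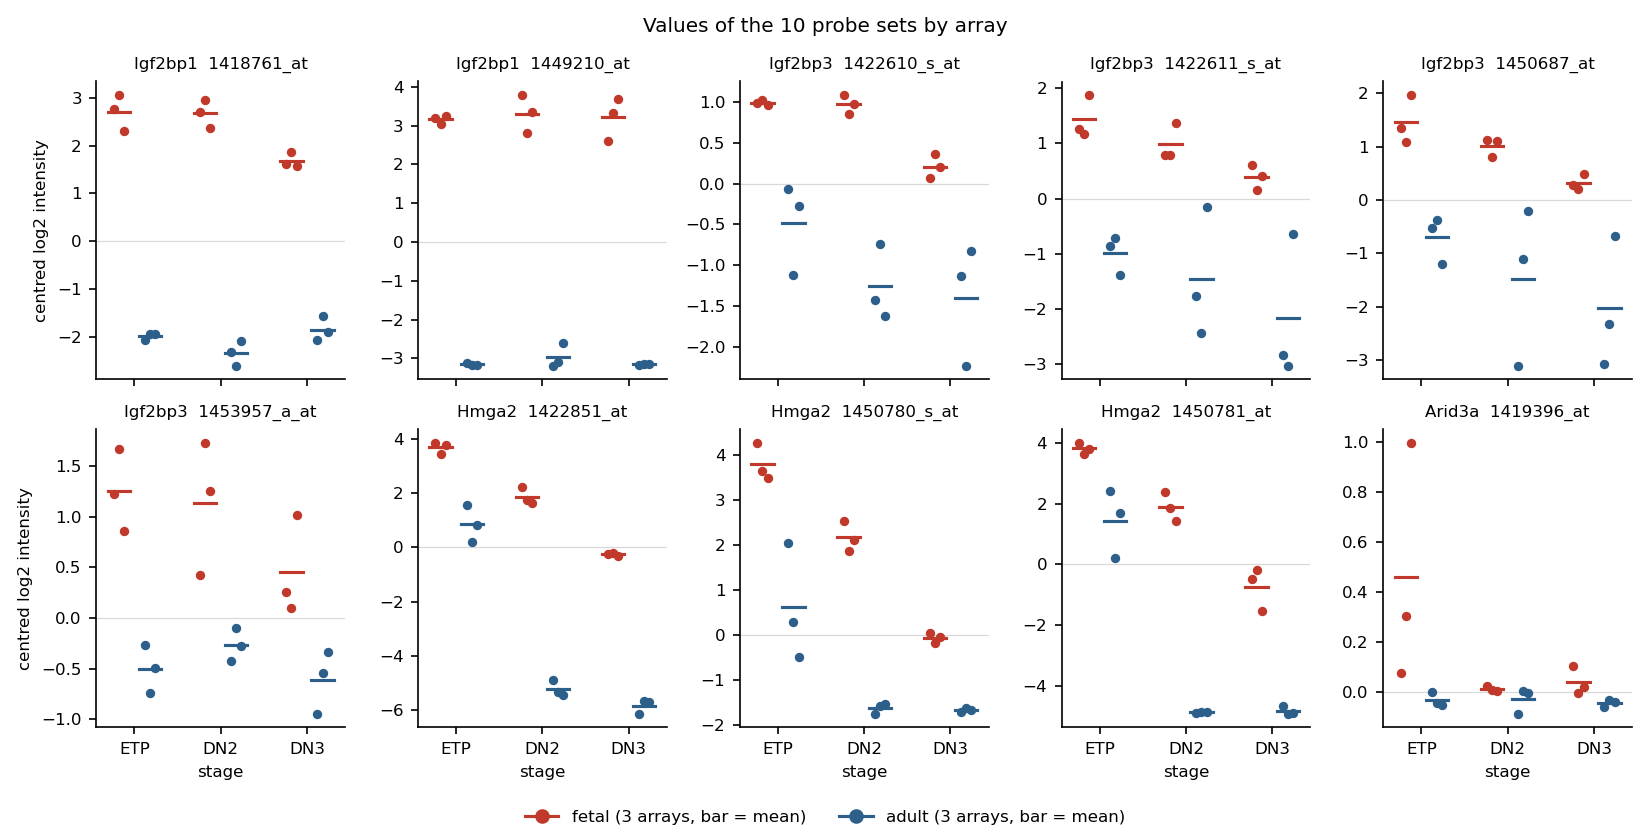
Centred log2 intensity (y axis, 0 = median of the 18 arrays, scale differs between panels) of the 10 probe sets in fetal (red) and adult (blue) cells at ETP, DN2 and DN3 (x axis), with a point per array and a bar at the mean of 3. Both *Igf2bp1* probe sets keep fetal and adult arrays apart at all stages. *Hmga2* falls along the stages in fetal cells and between ETP and DN2 in adult cells, and *Arid3a* hardly moves outside fetal ETP.

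*Igf2bp1*, which binds messengers such as *Myc* and *Actb*, had the clearest separation. Its probe set 1449210_at stood at 3.19, 3.04 and 3.25 in fetal ETP, at 3.79, 2.81 and 3.34 in fetal DN2 and at 2.61, 3.33 and 3.69 in fetal DN3. In adult cells it stood at -3.12, -3.17 and -3.18 in ETP, at -3.19, -3.10 and -2.61 in DN2 and at -3.17, -3.13 and -3.15 in DN3. The 9 fetal arrays lay more than 5 log2 units above the 9 adult arrays and no stage stood out at either age. Apart from adult DN2 replicate 3 (-2.61), all adult arrays lay between -3.19 and -3.10. A lower adult level or an adult stage difference could not be seen if this common low value is a limit of detection, which is not known. The fetal excess was 6.32 ± 0.26 log2 at ETP (SE, n = 3 against 3, 79.7-fold, limma adjusted p = 5.8e-09), 6.28 ± 0.26 at DN2 (77.8-fold, adjusted p = 7.9e-09) and 6.36 ± 0.26 at DN3 (82.3-fold, adjusted p = 3.7e-09). It ranked 13th, 13th and 30th from the highest of 22626 probe sets at ETP, DN2 and DN3.

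The other probe set of *Igf2bp1*, 1418761_at, agreed in direction with smaller differences. It stood at 2.77, 3.05 and 2.30 in fetal ETP, at 2.70, 2.95 and 2.37 in fetal DN2 and at 1.62, 1.86 and 1.57 in fetal DN3, against -2.60 to -1.57 with a median of -2.05 over the 9 adult arrays. The groups of the ages did not overlap, and the fetal DN3 arrays were the lowest of the fetal arrays. The fetal excess was 4.68 ± 0.20, 5.0 ± 0.20 and 3.52 ± 0.20 log2 at ETP, DN2 and DN3, and its adjusted p in limma was at most 1.2e-07. In fetal cells it fell by 0.99 ± 0.20 log2 between DN2 and DN3 (adjusted p = 0.017) and by 1.02 ± 0.20 between ETP and DN3 (adjusted p = 0.0060). The call from DN2 to DN3 ended without fetal DN2 replicate 2 (-0.85 log2, adjusted p = 0.10), fetal DN3 replicate 1 (-0.96, 0.076) or fetal DN3 replicate 3 (-0.93, 0.073). No such fall was seen for 1449210_at, where fetal DN3 minus fetal ETP was 0.05 log2 with a 95% interval of -0.52 to 0.61. The probe sets of the gene correlated at r = 0.977 over the 18 arrays.

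On the arrays of fetal replicate 1 at DN2 and DN3, where *Hbb-y* was at adult values, 1449210_at stood at 3.79 and 2.61, the highest and the lowest of the 9 fetal values and both above all adult arrays. The summed erythroid markers were not at adult values on these arrays. They were at least 1.70 in fetal DN2 and 5.39 in fetal DN3, against at most -0.24 in adult cells. Fetal replicate 1 alone exceeded the adult arrays by 6.35, 6.76 and 5.76 log2 at ETP, DN2 and DN3 for 1449210_at and by 4.74, 5.03 and 3.46 log2 for 1418761_at, all called in limma. Against adult DN3 replicate 1 alone, the array with *Xist* at a female value, the excess in fetal DN3 was 6.38 and 3.74 log2.

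*Igf2bp3*, which binds *Igf2* and other messengers and has been used to drive fetal-like B cell development in mice, was higher in fetal cells with a smaller and less uniform difference. In all 4 probe sets the 9 fetal arrays lay above the 9 adult arrays, which held for 0.955% of all probe sets. For 1422610_s_at the values were 0.99, 1.02 and 0.96 in fetal ETP, 1.09, 0.85 and 0.98 in fetal DN2 and 0.06, 0.36 and 0.21 in fetal DN3. The adult values were -0.06, -1.12 and -0.28 in ETP, -1.43, -0.74 and -1.62 in DN2 and -1.14, -2.23 and -0.83 in DN3. Fetal arrays of 1 stage lay close together and adult arrays were spread. The fetal excess was 1.48 ± 0.34 log2 at ETP (adjusted p = 0.013), 2.23 ± 0.34 at DN2 (adjusted p = 0.0018) and 1.61 ± 0.34 at DN3 (adjusted p = 0.018) in limma.

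For 1422611_s_at the excess was 2.42 ± 0.61, 2.43 ± 0.61 and 2.56 ± 0.61 log2 at ETP, DN2 and DN3 (adjusted p = 0.021, 0.040 and 0.036). Thus the only *Igf2bp3* probe sets called at all 3 stages were 1422610_s_at and 1422611_s_at. The suffix of both marks possible cross-hybridization. For 1453957_a_at it was 1.75 ± 0.33 at ETP (adjusted p = 0.0037) and 1.40 ± 0.33 at DN2 (adjusted p = 0.029), and at DN3 it was 1.06 ± 0.33 and not called (adjusted p = 0.13). The most variable probe set, 1450687_at, missed the threshold at all 3 stages with 2.17 ± 0.65, 2.48 ± 0.65 and 2.35 ± 0.65 log2 (adjusted p = 0.051, 0.053 and 0.090). Its adult arrays ranged widely, with -0.53, -0.37 and -1.20 in ETP, -3.11, -1.12 and -0.20 in DN2 and -3.07, -2.32 and -0.68 in DN3. Its fetal arrays were 1.35, 1.09 and 1.97 in ETP, 1.12, 0.80 and 1.11 in DN2 and 0.28, 0.20 and 0.49 in DN3, and the ages again did not overlap. Averaged over its 4 probe sets, *Igf2bp3* was called higher in fetal cells at ETP (1.96 ± 0.33 log2, adjusted p = 0.0016), DN2 (2.14 ± 0.33, adjusted p = 0.0016) and DN3 (1.90 ± 0.33, adjusted p = 0.0035).

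Single calls of *Igf2bp3* rested on single arrays. The call of 1422610_s_at at ETP ended without adult ETP replicate 2 (1.16 log2, adjusted p = 0.055), and at DN3 without adult DN3 replicate 2 (1.19, 0.059), fetal DN3 replicate 2 (1.54, 0.075) or fetal DN3 replicate 3 (1.61, 0.062). For 1422611_s_at at ETP it ended without adult ETP replicate 3 (2.23, 0.073), fetal ETP replicate 1 (2.51, 0.053) or fetal ETP replicate 3 (2.20, 0.070). At DN2 it ended without any of the arrays except adult DN2 replicate 3, at 1.94 to 2.53 log2, and at DN3 without any except adult DN3 replicate 3, at 2.13 to 2.68 log2. For 1453957_a_at the DN2 call ended without adult DN2 replicate 1 (1.32, 0.080), adult DN2 replicate 3 (1.40, 0.076), fetal DN2 replicate 2 (1.10, 0.14) or fetal DN2 replicate 3 (1.34, 0.093). Conversely, 1450687_at was called without adult DN2 replicate 3 (3.12 log2, adjusted p = 0.019) and without adult DN3 replicate 3 (3.02, 0.018). With the replicate number as a block it was called at ETP (2.17 log2, adjusted p = 0.037) and at DN2 (2.48, 0.037). All of these alternatives kept the fetal arrays higher, and fetal replicate 1 alone exceeded the adult arrays by 0.69 to 2.78 log2 over the 4 probe sets and 3 stages, called for 1453957_a_at at ETP only.

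**Figure D2:**
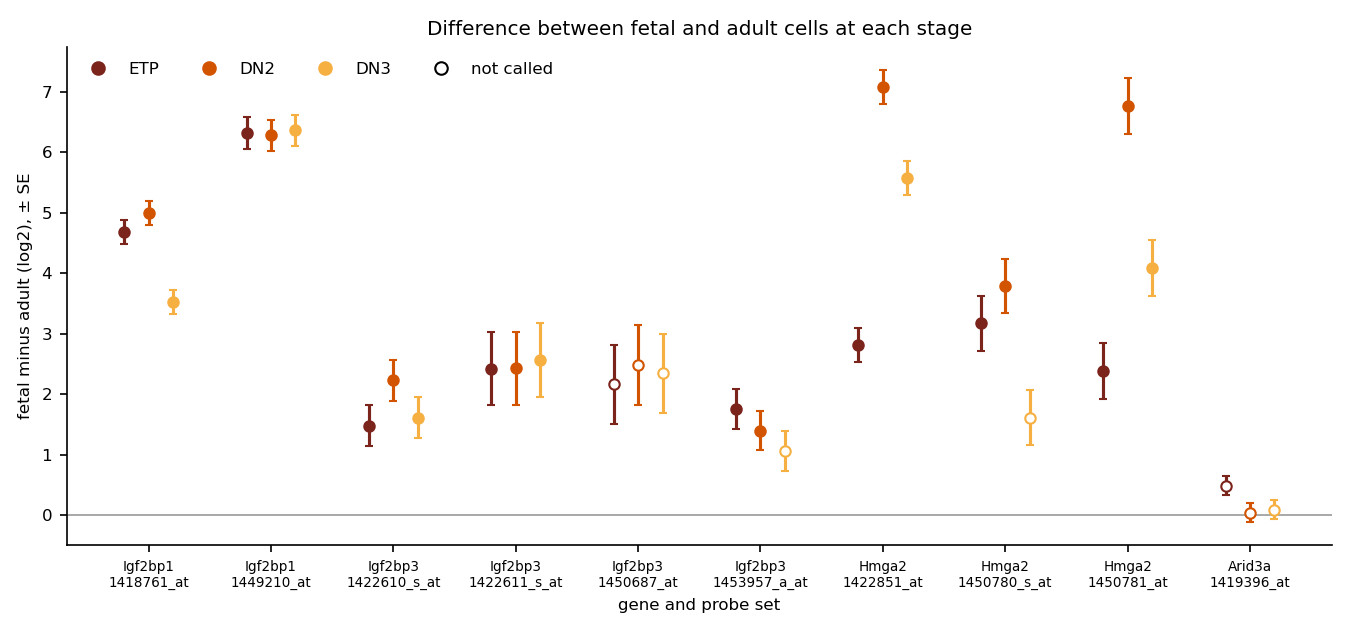
Fetal minus adult difference (log2, y axis) with its SE from limma (n = 3 against 3) for each of the 10 probe sets (x axis) at ETP, DN2 and DN3, with open points for differences that were not called. *Igf2bp1* stays near 6.3 log2 in 1449210_at, *Hmga2* is largest at DN2, and *Arid3a* lies near 0.

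*Igf2bp3* was the member with a promoter sequence in the annotation that held several matches, and a part is shown for the position of its motifs. Of the 4 measured genes 2, *Igf2bp3* and *Hmga2*, had a RefSeq promoter of 250 bases before to 50 after the start (GRCm38.p6). The E-box letters CACGTG, the letters CCAAT of the box of that name, the GC box letters GGGCGG and the TATA box letters TATAAA were searched on both strands. *Igf2bp3* held CACGTG at 2 positions, -23 and 6 from the start, which 0.594% of 32851 promoters matched with 2 or more and 7.15% with at least 1. It held CCAAT at -118, as did 37.4% of promoters at any position. *Hmga2* held 1 GGGCGG on the opposite strand at -133, a match found in 35.7% of promoters, and neither gene held TATAAA (13.6% of promoters). The 120 bases before the start of *Igf2bp3* (chr6:49214955-49215074, minus strand) follow with matches in capitals.
Igf2bp3 promoter: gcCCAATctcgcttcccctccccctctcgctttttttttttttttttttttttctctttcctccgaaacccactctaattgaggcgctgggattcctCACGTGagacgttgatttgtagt

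*Hmga2* differed from the Igf2bp genes in that all its probe sets were called lower between ETP and DN3 at both ages. The 4 *Igf2bp3* probe sets also had lower means at DN3 than at ETP, but none of these differences was called. They were -1.15 to -0.78 log2 in fetal cells and -1.33 to -0.11 log2 in adult cells. Its probe set 1422851_at stood at 3.86, 3.43 and 3.76 in fetal ETP, 2.22, 1.76 and 1.65 in fetal DN2 and -0.23, -0.21 and -0.33 in fetal DN3. In adult cells it stood at 1.58, 0.21 and 0.82 in ETP, -4.88, -5.32 and -5.43 in DN2 and -6.12, -5.66 and -5.71 in DN3. Fetal arrays thus stepped down at each stage, while adult DN2 and DN3 arrays lay together far below adult ETP. The order of the means was fetal ETP, fetal DN2, adult ETP, fetal DN3, adult DN2 and adult DN3, and of these neighbours only adult DN2 and adult DN3 did not differ by the threshold (0.62 log2, adjusted p = 0.44).

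The fetal excess of 1422851_at was 2.82 ± 0.28 log2 at ETP (7.04-fold, adjusted p = 3.5e-05), 7.09 ± 0.28 at DN2 (136-fold, adjusted p = 5.4e-09) and 5.57 ± 0.28 at DN3 (47.5-fold, adjusted p = 3.3e-08). It ranked 7th of 22626 probe sets at DN2. Fetal DN3 cells had 4.95 ± 0.28 log2 more than adult DN2 cells (adjusted p = 9.6e-08; 2.56% of all probe sets were called in this direction), which precede them by a stage. They had 1.13 ± 0.28 log2 less than adult ETP (adjusted p = 0.013; 6.64% of all). Adult DN3 replicate 3, in which *Cd34* was near DN2 values, stood at -5.71 and within the range of the other adult DN3 arrays.

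The other probe sets of *Hmga2* were also called higher in fetal ETP and DN2, with differences of other sizes. For 1450781_at the fetal excess was 2.38 ± 0.46, 6.76 ± 0.46 and 4.09 ± 0.46 log2 at ETP, DN2 and DN3 (adjusted p = 0.0050, 1.9e-06 and 0.00012). For 1450780_s_at, whose suffix marks possible cross-hybridization, it was 3.17 ± 0.45 at ETP and 3.79 ± 0.45 at DN2 (adjusted p = 0.00062 and 0.00027), and at DN3 it was 1.61 ± 0.45 and not called (adjusted p = 0.093). Adult DN2 and DN3 arrays of this probe set all lay between -1.75 and -1.55, and those of 1450781_at between -4.92 and -4.68, so that each of these probe sets had a common low value in 6 arrays. Correlations between the 3 probe sets over the 18 arrays were 0.928 to 0.988. Fetal DN3 minus adult DN2 was 4.14 ± 0.46 log2 for 1450781_at (limma adjusted p = 8.1e-05) and 1.56 ± 0.45 for 1450780_s_at (0.072, not called). Fetal DN3 minus adult ETP was -2.19 ± 0.46 (0.0046) and -0.68 ± 0.45 log2 (0.43, not called) in the same order. Fetal DN2 minus adult ETP was 0.44 ± 0.46 (0.46, not called) and 1.55 ± 0.45 log2 (0.033).

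Between ETP and DN3 all 3 *Hmga2* probe sets were called lower at both ages, as were 1.76% of all probe sets. Fetal DN3 minus fetal ETP was -3.94 ± 0.28 (1422851_at), -4.57 ± 0.46 (1450781_at) and -3.85 ± 0.45 log2 (1450780_s_at), and adult DN3 minus adult ETP was -6.70 ± 0.28, -6.28 ± 0.46 and -2.29 ± 0.45 log2 in the same order, with adjusted p of at most 0.0041 in limma. Of the 10 members, 4 were called lower along the fetal course (2.76% of all probe sets) and 3 along the adult course (5.2%). None was called higher by limma, which held for 2.69% and 5.56% of all probe sets along the fetal and the adult course. Without adult DN3 replicate 3 the adult count was 5.

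In adult cells all 3 probe sets were called lower between ETP and DN2. Adult DN2 minus adult ETP was -6.08 ± 0.28 (adjusted p = 2.1e-08), -6.32 ± 0.46 (1.9e-06) and -2.24 ± 0.45 log2 (0.0077) for 1422851_at, 1450781_at and 1450780_s_at, a step at which 3.11% of all probe sets were called lower. From adult DN2 to adult DN3 the differences were -0.62, 0.04 and -0.05 log2 and none was called, although the adult DN3 arrays of 1422851_at all lay below the adult DN2 arrays (unadjusted p = 0.047, adjusted p = 0.44 in limma). A further fall of 1450781_at and 1450780_s_at could not be seen if their common low value is a limit of detection, which is not known. In fetal cells calls were made at both steps. Fetal DN2 minus fetal ETP was -1.81 ± 0.28 (adjusted p = 0.0053), -1.94 ± 0.46 (0.085, not called) and -1.63 ± 0.45 log2 (0.19, not called), with 0.557% of all probe sets called lower. Fetal DN3 minus fetal DN2 was -2.13 ± 0.28 (adjusted p = 0.00067), -2.63 ± 0.46 (0.0061) and -2.23 ± 0.45 log2 (0.016), all called, against 0.84% of all probe sets. The last of these, for 1450780_s_at, ended without fetal DN2 replicate 1 (-2.04, adjusted p = 0.062) or 3 (-2.26, 0.052) or any of fetal DN3 replicates 1, 2 and 3 (-2.28, -2.17 and -2.24, at 0.058, 0.063 and 0.055).

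The change of the age difference between stages was tested itself. From ETP to DN2 the fetal excess of *Hmga2* grew by 4.27 ± 0.40 log2 for 1422851_at (adjusted p = 7.3e-05) and by 4.38 ± 0.65 log2 for 1450781_at (adjusted p = 0.0045), while 1450780_s_at gave 0.62 ± 0.64 log2 with a 95% interval of -0.77 to 2.00. Over all probe sets 0.491% were called in this direction. From ETP to DN3 the excess of 1422851_at grew by 2.75 ± 0.40 log2 (adjusted p = 0.0016; 1.39% of all probe sets called in this direction), whereas 1450781_at with 1.71 ± 0.65 and 1450780_s_at with -1.56 ± 0.64 log2 were not called and pointed in opposite directions. The adult DN2 and DN3 arrays lay in a narrow range for both 1450781_at and 1450780_s_at. Why the changes of these probe sets differed was not tested. For *Igf2bp1* 1418761_at the excess shrank from DN2 to DN3 (-1.48 ± 0.29 log2, adjusted p = 0.036; 0.199% of all) and from ETP to DN3 (-1.16 ± 0.29, adjusted p = 0.0497; 1.1% of all), but 1449210_at gave 0.08 and 0.05 log2 with intervals of -0.72 to 0.88 and -0.75 to 0.84. Both calls of 1418761_at ended after centring each array (adjusted p = 0.0501 and 0.073) and after quantile normalization (0.12 and 0.93). None of the *Igf2bp3* probe sets was called in these tests.

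*Arid3a*, an AT-rich interaction domain protein that activates immunoglobulin genes in B cells, was not called between the ages. It stood at 0.08, 0.30 and 1.00 in fetal ETP, 0.02, 0.01 and 0.00 in fetal DN2 and 0.10, -0.00 and 0.02 in fetal DN3, against -0.09 to 0.00 over the 9 adult arrays. The value of fetal ETP replicate 3 lay apart from all others. Fetal minus adult was 0.49 ± 0.16 log2 at ETP (adjusted p = 0.064), 0.04 at DN2 (95% interval -0.30 to 0.38) and 0.09 at DN3 (-0.25 to 0.43). That its fetal ETP arrays did not overlap the adult ones carried little weight, since 51.7% of all probe sets were higher on all 3 fetal ETP arrays than on all 3 adult ETP arrays, mostly by small amounts. *Alas2*, an enzyme of haem synthesis in red cell precursors, was 1 of 9 measured erythroid markers. It stood at 0.03, 0.01 and 4.12 in fetal ETP and at -0.05 to 0.00 in adult ETP. *Hbb-y* (1436717_x_at) stood at 5.47, 9.93 and 10.74 in fetal ETP and at 10.15 and 10.16 in fetal DN2 replicates 2 and 3. The part of these genes in the *Arid3a* value was not tested.

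**Figure D3:**
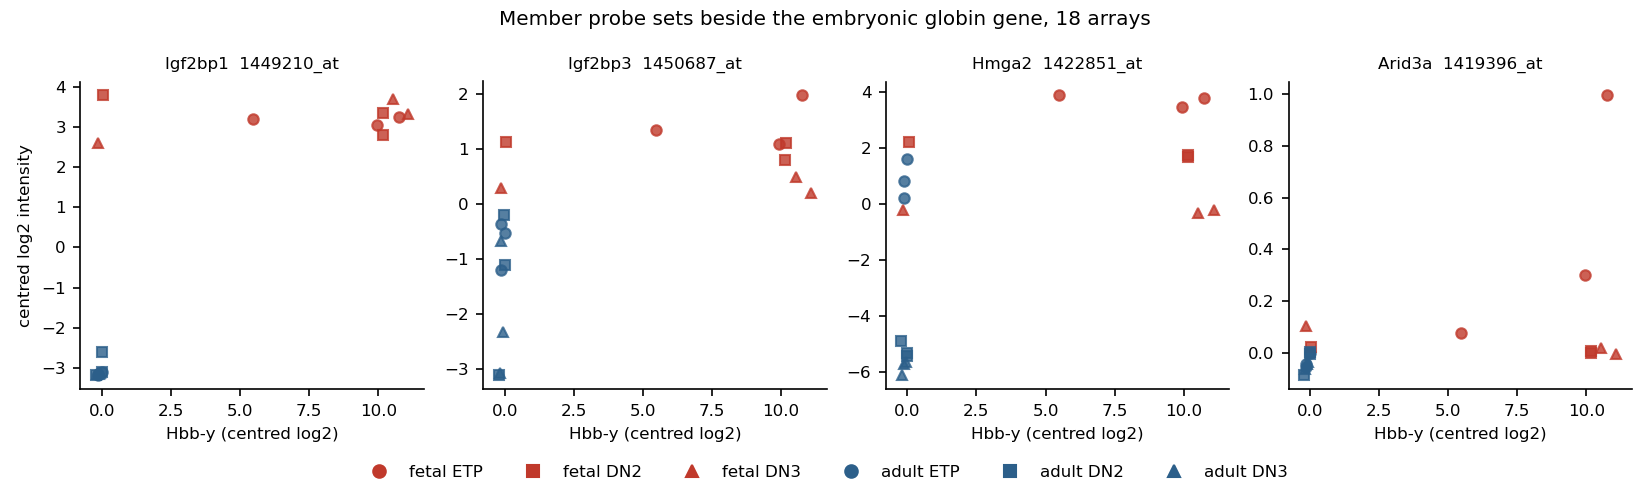
Centred log2 intensity of 1 probe set per member gene (y axis) against that of *Hbb-y* 1436717_x_at (x axis) for the 9 fetal (red) and 9 adult (blue) arrays, with a symbol per stage. The 2 fetal arrays with *Hbb-y* near 0 lie above all adult arrays of their stage in *Igf2bp1*, *Igf2bp3* and *Hmga2*, and the DN3 one is the lowest fetal array in *Igf2bp1* (2.61). The summed erythroid markers, not drawn here, were above all adult arrays on each of the 9 fetal arrays.

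The genes whose values ran most like each member are given as a description over the 18 arrays, which share the age contrast and the stages, among 12389 other genes. For *Igf2bp1* (1449210_at) they were *B4galnt2*, *Enah*, *Homer2*, *Rps4l* and *Podxl* with r = 0.961 to 0.992. *Enah* regulates actin filaments and averaged 3.19, 4.26 and 4.25 in fetal ETP, DN2 and DN3 against -4.05, -4.39 and -4.40 in adult ETP, DN2 and DN3. For *Igf2bp3* (1450687_at) they were *Ell2*, *Yaf2*, *Zcchc3*, *Bmp2k* and *Zscan12* (r = 0.911 to 0.943). For *Hmga2* (1422851_at) they were *Meis1*, *Bex4*, *Klf4*, *Ccdc102a* and *Ctbp2* (r = 0.927 to 0.959), of which *Meis1* encodes a homeobox factor of blood stem cells. For *Arid3a* they were *Tgm2*, *Hlf*, *Rhag*, *Elovl7* and *Tlcd4* (r = 0.971 to 0.988), and without fetal ETP replicate 3, an alternative added after seeing the data, r was 0.75 to 0.90 for these genes.

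**Figure D4:**
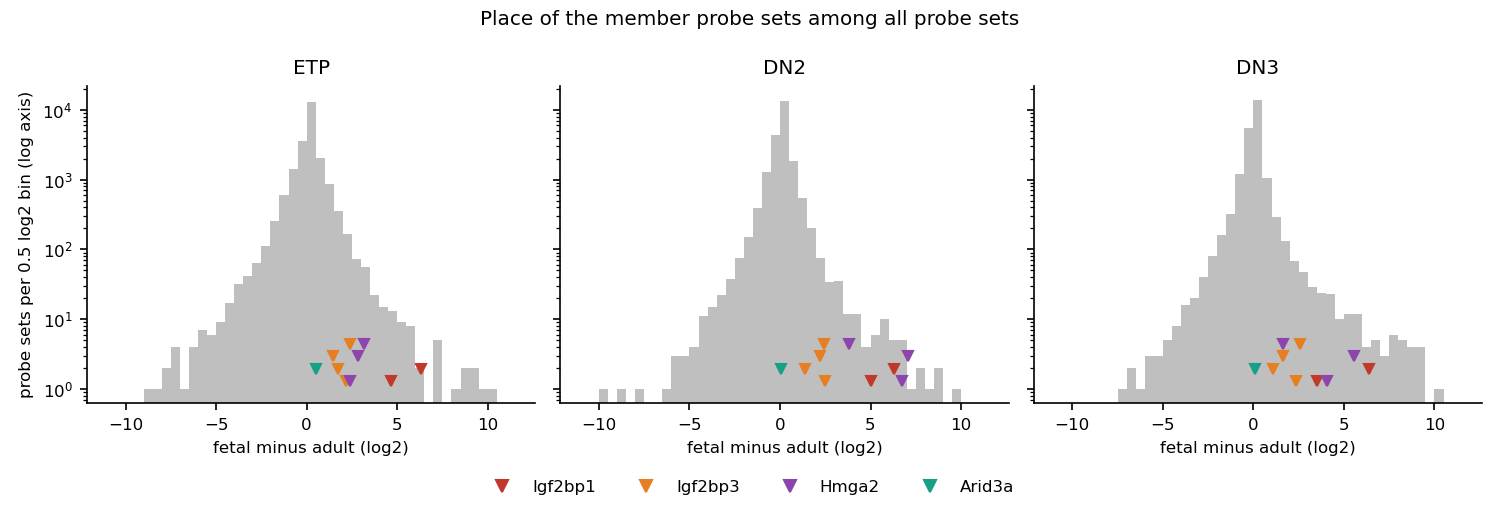
Number of probe sets (y axis, log scale) by fetal minus adult difference (x axis, log2, bins of 0.5) at ETP, DN2 and DN3, with the 10 member probe sets as triangles whose height has no meaning. The *Igf2bp1* and, at DN2, *Hmga2* probe sets lie in the right tail, while *Arid3a* lies in the centre.

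Related genes were examined with 1 probe set per gene. Of the 18 genes listed for the let-7 pathway, which processes or destroys the microRNA precursor, 7 were measured. By limma 0 of the 7 were called higher in fetal cells (5.04%, 1.87% and 1.6% of all probe sets at ETP, DN2 and DN3). 1 was called lower, at ETP (3.45% of all probe sets): *Tut7*, a uridylyl transferase (-1.32 ± 0.36 log2, adjusted p = 0.032). *Lin28a*, which binds the let-7 precursor, was flat, with values between -0.16 and 0.14 on the 18 arrays for 1437752_at and between -0.08 and 0.05 for 1421749_at. *Lin28b* was not analysed here. The list's median difference was 0.10, 0.08 and 0.03 log2 at ETP, DN2 and DN3, against 0.07, 0.03 and 0.02 over all genes.

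Some other messengers known as let-7 targets were called between the ages. Of 15 measured of 18 listed, 1 was called higher at ETP, 2 at DN2 and 1 at DN3 in fetal cells (5.04%, 1.87% and 1.6% of all probe sets), and 1 was called lower in fetal DN3 (1.16%). *Cdc34*, a ubiquitin-conjugating enzyme of the cell cycle, was higher at ETP (1.58 ± 0.26 log2, adjusted p = 0.0017) and DN2 (1.20 ± 0.26, 0.021). *Zbtb16*, a transcription factor of innate-like lymphocytes, was higher at DN2 (1.56 ± 0.14, 3.4e-05). *Igf1r*, the receptor for both insulin-like growth factors, was higher at DN3 (1.69 ± 0.27, 0.0022), and *Mycn* was lower at DN3 (-1.59 ± 0.39, 0.047). With all probe sets of a gene averaged, *Mycn* was not called at DN3 (-0.51 log2, adjusted p = 0.066), while *Cdc34* was called higher at DN3 (1.04, 0.041) and *Zbtb16* at ETP (2.47, 2.8e-05). The median difference of the list was 0.42, 0.54 and 0.03 log2 at the 3 stages, against 0.07, 0.03 and 0.02 over all genes.

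Among the messengers bound by Igf2bp proteins, *Igf2* stood out. This fetal growth factor was at 2.09, 3.16 and 0.27 in fetal ETP, 5.85, 4.50 and 4.19 in fetal DN2 and 7.46, 7.39 and 7.06 in fetal DN3. In adult cells it was at -2.87, -2.39 and -2.62 in ETP, -2.94, -3.0 and -2.97 in DN2 and -0.27, -2.88 and -3.02 in DN3. All fetal arrays lay above all adult arrays. Fetal values were higher at each later stage, with means of 1.84, 4.85 and 7.30 in fetal ETP, DN2 and DN3. Neither single fetal step of *Igf2*, ETP to DN2 or DN2 to DN3, was called in limma. Over the whole fetal course from ETP to DN3, 2 of the 7 measured messengers of the list were called higher and 1 lower, against 2.69% and 2.76% of all probe sets. Adult values of *Igf2* did not rise with the stages, and adult DN3 replicate 1 (-0.27) stood above the other adult arrays. The fetal excess was 4.46 ± 0.75, 7.82 ± 0.75 and 9.36 ± 0.75 log2 at ETP, DN2 and DN3 (adjusted p = 0.0018, 4.2e-05 and 3.9e-06). Of the 7 measured messengers of the list, 2 were called higher at ETP (*Igf2* and *Ctnnb1*), 1 at DN2 (*Igf2*) and 2 at DN3 (*Igf2* and *Igf1r*). Of all probe sets, 5.04%, 1.87% and 1.6% were called higher at these stages. None of the list was called lower in limma (3.45%, 1.57% and 1.16% of all probe sets), and its median was 0.52, 0.73 and 0.28 log2. *Ctnnb1*, which encodes beta-catenin, was at 0.60, 0.60 and -0.06 in fetal ETP and at 0.06, -4.42 and -3.92 in adult ETP, where replicate 1 overlapped the fetal arrays, and its call ended when its probe sets were averaged (1.32 log2, adjusted p = 0.068). The 10 measured proteins found in complexes with Igf2bp, such as *Ybx1* and *Syncrip*, had 0 calls between the ages in limma, with medians of 0.41, 0.05 and -0.19 log2, but *Syncrip* was called higher at ETP (0.99 log2) and DN2 (0.97 log2) when all its probe sets were averaged.

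In each list of relatives of the members at most 1 gene was called at a stage by its 1 probe set. Of all probe sets, 5.04%, 1.87% and 1.6% were called higher in fetal ETP, DN2 and DN3, and 3.45%, 1.57% and 1.16% lower. Of 7 other high mobility group proteins, *Hmgb3* was higher in fetal ETP (1.37 ± 0.37 log2, adjusted p = 0.032), and *Hmgn3*, a nucleosome-binding protein, was lower in fetal DN2 (-4.36 ± 0.56, 0.00051) and DN3 (-4.82 ± 0.56, 0.00015). *Hmgn3* stood at -1.12, -0.02 and -1.49 in fetal DN3 and at 3.92, 4.12 and 3.81 in adult DN3, without overlap, and it was also called lower in fetal ETP with its probe sets averaged (-1.76 log2, adjusted p = 0.019). The list's medians were 0.43, 0.13 and -0.07 log2 at ETP, DN2 and DN3. Among 7 other AT-rich interaction domain proteins, *Arid5b* was lower in fetal ETP (-4.03 ± 0.22, 8.7e-08), with 0.04, -0.05 and 0.02 in fetal ETP against 4.11, 4.29 and 3.72 in adult ETP. *Jarid2* was called lower in fetal ETP only with its probe sets averaged (-0.93, 0.0053), and the medians were -0.05, 0.00 and -0.16 log2. Of 6 *Arid3a* partners, *Sp100*, a nuclear body protein, was lower in fetal cells at ETP (-2.61 ± 0.32, 0.0002), DN2 (-1.37 ± 0.32, 0.031) and DN3 (-1.35 ± 0.32, 0.039), with list medians of -0.01, -0.19 and -0.04 log2. Of 10 other genes of the fetal blood stem cell programme, *Ahr*, a ligand-activated transcription factor, was called higher in fetal ETP (1.87 ± 0.35, 0.0039) and 0 were called at DN2 or DN3 in limma, with medians of 0.08, 0.06 and 0.02 log2.

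**Figure D5:**
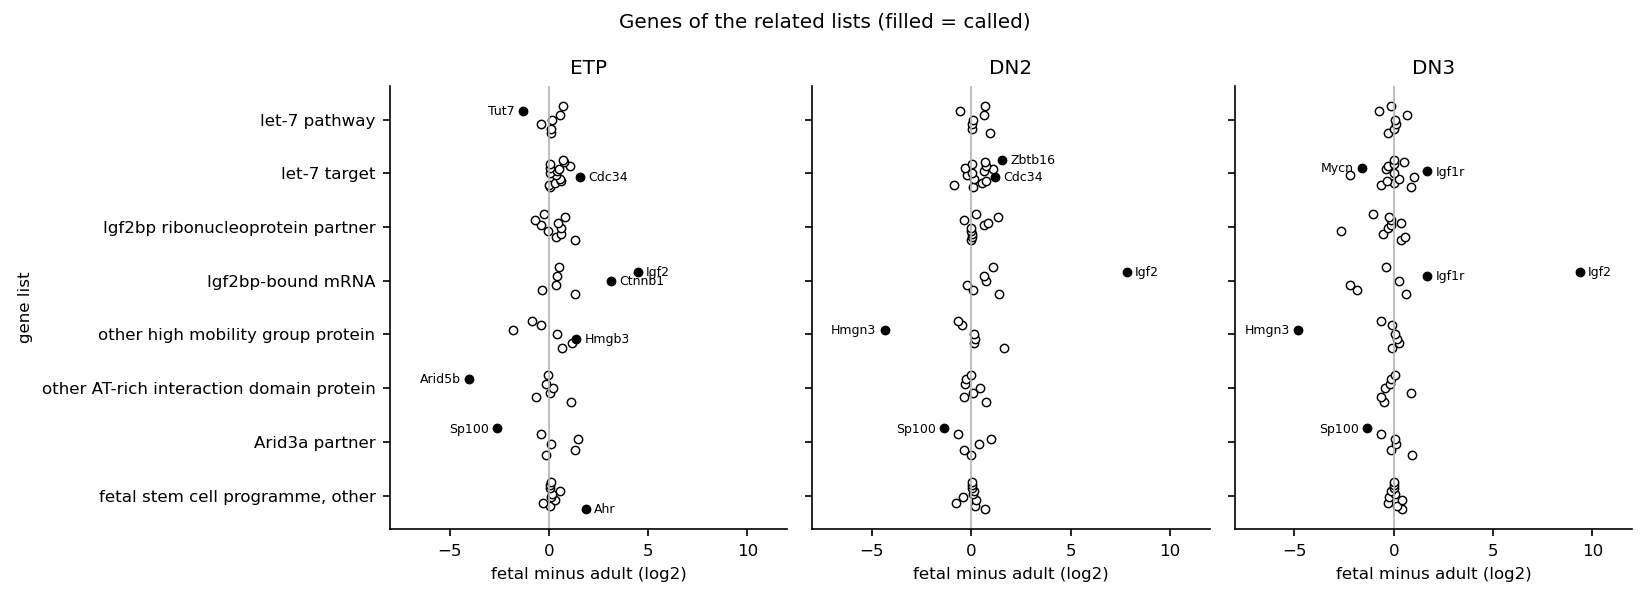
Fetal minus adult difference (x axis, log2) of each measured gene of the 8 related lists (y axis) at ETP, DN2 and DN3, with filled and named points for called genes. *Igf2* is the largest excess at each stage, while *Hmgn3*, *Arid5b* and *Sp100* lie on the adult side.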

How the data were processed

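Values of 18 arrays were used as deposited: log2 intensities that the authors normalized by GC-RMA in Genespring GX (version not given in the sources used here), each probe set centred on its median over the 18 arrays. Every column was mapped to a sample (0 not mapped). Since centred values hold no level, no filter on low values was applied. Probe sets were named from the platform annotation (20380 of 22626 name 1 gene, 691 several and 1555 none); 12377 of 12393 symbols are in the RefSeq table. For a gene of a list 1 probe set was taken, preferring names without a cross-hybridization suffix and then the largest SD.

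A linear model with 1 mean per group was fitted to the 18 arrays in limma 3.58.1 (R 4.3.3), and the script was tested on simulated data. Alternatives were another scaling between arrays, array weights (gene by gene, because the REML estimate did not converge), a robust prior, only the arrays of a contrast, a one-way test with ordinary variance, no fold threshold, the replicate number as a block, and leaving out each array. Tables and figures were made in Python 3.11.15. Members and lists were chosen with earlier results of these data known. Named are all members, up to 4 called genes per list and comparison, and the 5 genes most like each member by Pearson correlation. The only limit on precision given is the number of arrays.

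Deviations from the group means correlated between arrays of the same number at over 0.1 in every pair of fetal groups (r = 0.33 to 0.60), of fetal groups with adult DN2 (0.12 to 0.38) and of adult DN2 with adult DN3 (0.11 to 0.42), but not between fetal and adult ETP (-0.34 to 0.19) or fetal and adult DN3 (-0.28 to 0.05).

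Marker lists served to look for other cells. Mesenchymal (7 of 9 measured genes), endothelial (5 of 6), thymic epithelial (4 of 8), B cell (3 of 7) and natural killer cell markers (3 of 5) varied by under 0.3 log2, as did 7064 probe sets in all. Of the other genes of these lists only *Krt18* and *Epcam*, 2 thymic epithelial markers, were called between the ages. Summed over the 8 myeloid markers, centred values were 15.5 to 17.7 in fetal ETP and 25.0 to 34.9 in adult ETP. Over the 7 measured T lineage markers they were -27.1 to -16.8 in fetal ETP and 11.2 to 14.4 in fetal DN3, against -48.4 to -34.6 in adult ETP and 9.07 to 15.0 in adult DN3.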

Additional observations from a re-analysis of the deposited data

Results flagged for a closer look

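5 differences between fetal and adult cells changed between stages by the test of the change itself. For *Hmga2* the fetal excess was larger at DN2 than at ETP by 4.27 log2 (1422851_at) and 4.38 log2 (1450781_at), and larger at DN3 than at ETP by 2.75 log2 (1422851_at). For *Igf2bp1* 1418761_at it was smaller at DN3 than at DN2 (-1.48 log2) and than at ETP (-1.16 log2). The *Igf2bp1* calls ended without most single arrays: the change to DN3 from DN2 then lay at -1.34 to -1.51 log2 in 8 of 12 cases (without adult DN2 replicates 1 or 2, adult DN3 replicates 2 or 3, fetal DN2 replicates 1 or 2, and fetal DN3 replicates 1 or 3), and the change to DN3 from ETP lost its call without any of adult ETP replicates 1 to 3, adult DN3 replicates 2 or 3, fetal ETP replicates 1 or 2, and fetal DN3 replicates 1 to 3, at -0.99 to -1.25 log2. Both also ended with only the arrays of the contrast (adjusted p = 0.075 and 0.057) and in the one-way test with ordinary variance (0.15 and 0.10), and the change to DN3 from ETP with array weights (0.051) and the robust prior (0.054). The calls of *Hmga2* held without each single array, but the change to DN3 was not called after quantile normalization (1.63 log2, adjusted p = 0.63), nor that of 1450781_at to DN2 in the one-way test (0.076). With fetal replicate 1 alone the *Hmga2* changes to DN2 were 4.44 and 4.68 log2 (adjusted p = 0.072 and 0.27).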

How the results depend on the processing

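No difference reversed. Of 799 recomputed differences of single probe sets, 659 kept their call or its absence, 125 lost it and 15 gained it. The count of members called between the ages was 8 at ETP, 8 at DN2 and 6 at DN3. It was 2 at ETP and 5 at DN2 in the one-way test with ordinary variance, and 4 at ETP and 4 at DN2 with fetal replicate 1 alone, where the single array per group is assumed to vary like the other groups. The 4 falls along the fetal course were 7 with array weights and 1 with fetal replicate 1 alone. The 2 members whose age difference changed from ETP to DN3 were 1 after centring each array, 0 after quantile normalization, 1 with the robust prior, 1 with only the arrays of the contrast, 1 in the one-way test, 0 with fetal replicate 1 alone and 1 with adult DN3 replicate 1 alone. The alternatives of fetal replicate 1 and adult DN3 replicate 1 alone were chosen after seeing the data, and the cause of these changes was not tested beyond the fewer arrays in the fits with single replicates or single contrasts. Leaving out 1 array gave 7 to 8 calls at ETP, 6 to 8 at DN2, 4 to 7 at DN3, 3 to 5 along the adult course, 4 to 4 along the fetal course and 1 to 2 for the change from ETP to DN3. With the replicate block the counts were 9, 9 and 6 at ETP, DN2 and DN3. It changed no call of these 3 comparisons other than *Igf2bp3* 1450687_at, and of the other 3 counts none. The number of arrays limits the precision.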
